A study of Mus musculus with 2 samples.

Results

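Peritoneal B-2 cells are the conventional B cells of the mouse peritoneal cavity, the minority among its B cells beside the resident B-1 cells. Here they were 1465 of 30733 cells kept from 2 single-cell RNA-seq libraries, 526 of 16000 Cd36-/- cells and 939 of 14733 fl/fl cells. A barcode was kept with at least 200 genes and at most 10% mitochondrial UMIs (unique molecular identifiers, each standing for 1 captured transcript). A B cell then had at least 15 UMIs per 10000, and at least 3 in all, of Cd79a, Cd79b and Ms4a1, under 15 UMIs per 10000 of the complement genes C1qa, C1qb and C1qc, and at most 1 UMI of Cd3d, Cd3e and Cd3g. It was called a B-2 cell where Ighd and Fcer2a together had more UMIs than Mzb1, Zcwpw1 and Ly6a together, and a B-1 cell where they had fewer. Ties, 212 Cd36-/- and 317 fl/fl cells, belonged to neither. The members were thus selected on measured values, and the values of those 14 genes in the cells below are descriptions of that choice.

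Follicular B-2 cells circulate through blood, lymph nodes and spleen, carry surface IgD and the low-affinity IgE receptor CD23 (encoded by Fcer2a), and respond to antigen with T cell help. B-1 cells renew themselves in body cavities and secrete natural IgM. Zymosan, a yeast cell wall preparation, causes a sterile peritonitis that draws in neutrophils and then monocytes, and lymphocytes are among the cells present while it resolves.

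The Cd36-/- library came from LysM-Cre mice crossed to a floxed CD36 strain, and the fl/fl library from the floxed CD36 strain without a Cre named in the labels. CD36 is a scavenger receptor and fatty acid carrier. LysM-Cre acts in macrophages and neutrophils, so B cells are not its target. Mice of both groups were 10 to 14 weeks old, and all received zymosan into the peritoneal cavity at 1 mg per animal. Cells were washed out on day 3, and each library is labelled as a pool of 4 replicates. There was no untreated group. With 1 library per group nothing below is a test between genotypes: the 95% intervals cover counting error only, and differences between animals, washes and library preparations cannot be told apart from genotype.

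The Cd36-/- B-2 cells held 1252470 UMIs and the fl/fl B-2 cells 2737976, with medians of 1950.5 and 2450 UMIs per cell. B-1 cells were deeper, with medians of 4961 and 6132 UMIs. Whole libraries held 116600732 and 117238057 UMIs in 16543 and 15537 barcodes, and 383 barcodes occurred in both; 8 Cd36-/- and 33 fl/fl B-2 cells had a barcode that was also a kept cell of the other library. Cd36 itself, the targeted gene, stood at 176.0 CPM in Cd36-/- macrophages and 254.6 CPM in fl/fl macrophages, where CPM is a gene's UMIs per 1000000 UMIs of the summed cells, and 64.1% and 73.4% of macrophages had a UMI of it. The library labelled Cd36-/- thus still held Cd36 RNA in most macrophages. The floxed part of the gene is not given in the sources used here, so these 3-prime counts do not check the deletion, and Cd36-/- below names the library by its label. In B-2 cells it stood at 31.1 and 29.9 CPM (log2 ratio 0.06, -0.53 to 0.62).

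The label was described first by its 5 markers, of which Ighd and Fcer2a had served in the selection. Ighd, the constant region gene of IgD (mm10 chr12:113406604-113416324, minus strand), averaged 1266 CPM in Cd36-/- B-2 cells and 1254 CPM in fl/fl B-2 cells, against 176.6 and 193.6 CPM in B-1 cells of the same libraries. Fcer2a (chr8:3681737-3694175, minus strand) averaged 279 and 290 CPM, against 26.9 and 29.4 CPM in B-1 cells. Vpreb3, which encodes a surrogate light chain-like protein (chr10:75943057-75949657, plus strand), stood at 347 and 339 CPM in B-2 cells and 52.8 and 63.5 CPM in B-1 cells. Of these 3 genes only Vpreb3 bears on the label, as the rule itself sets the other two apart.

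The lymph node homing receptor gene Ccr7 (chr11:99144196-99155077, minus strand) had 407 and 374 CPM in Cd36-/- and fl/fl B-2 cells, and 98.6 and 94.3 CPM in B-1 cells. Ebf1, a transcription factor of the whole B lineage (chr11:44617317-45008091, plus strand), had 1587 and 1804 CPM in B-2 cells and 902.5 and 959.3 CPM in B-1 cells, so it separated the classes by less. T cells should lack Ighd and Fcer2a. Ighd had a UMI in 3.45% of Cd36-/- and 3.39% of fl/fl T cells. It had one in 96.2% and 97.4% of B-2 cells, which the rule favours. Fcer2a had a UMI in 46.2% of Cd36-/- B-2 cells and 52.5% of fl/fl B-2 cells, against 0.545% and 1.20% of T cells. After each cell was thinned to 1000 UMIs, which left out 7 Cd36-/- and 10 fl/fl B-2 cells, the Fcer2a shares were 25.6% and 24.0%. The 3 markers with no part in the rule, Vpreb3, Ccr7 and Ebf1, were higher in B-2 than in B-1 cells in both libraries. Of these, Ccr7 was not particular to B cells, with a UMI in 32.55% of Cd36-/- and 33.93% of fl/fl T cells. Vpreb3 had one in 0.364% and 1.40% of T cells, and Ebf1 in 3.64% and 4.59%. All 3 are on a list of follicular B-2 genes that was chosen with earlier results of these data known. Their levels thus describe the class and are no separate check of the label.

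**Figure D1:**
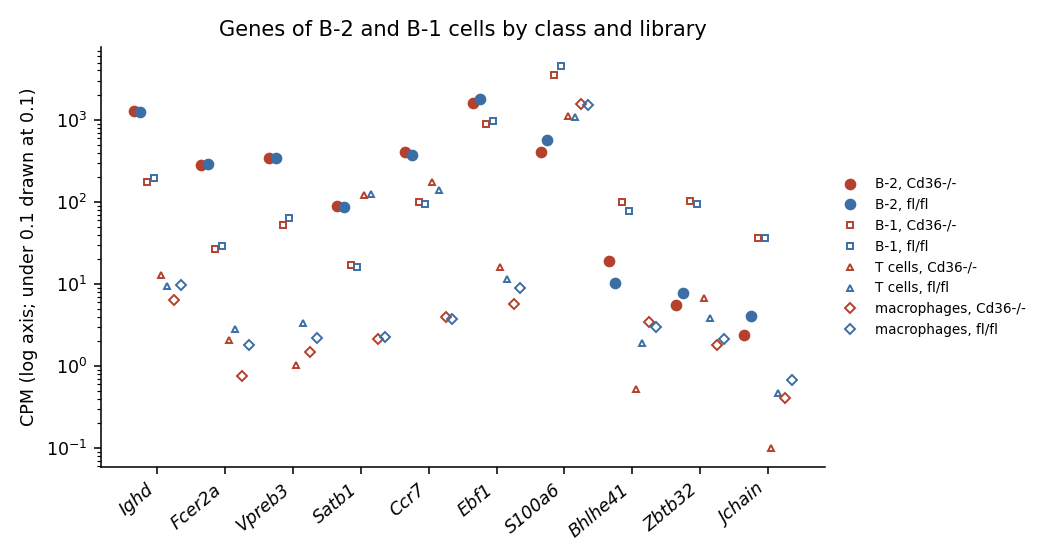
CPM (log axis) of 10 genes in the summed B-2 cells (filled circles), B-1 cells, T cells and macrophages of each library, 1 point per class and library. Ighd, Fcer2a, Vpreb3, Satb1 and Ccr7 lie higher in B-2 than in B-1 cells in both libraries, and S100a6, Bhlhe41, Zbtb32 and Jchain lie lower.

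The selection takes a part of the B-2-like cells rather than all of them. Cells with Ighd and Fcer2a ahead by only 1 UMI had 367 and 377 CPM of Vpreb3 in the Cd36-/- and fl/fl libraries, tied cells just outside the rule had 294 and 277 CPM, and cells behind by 1 UMI had 210 and 276 CPM. Those behind by 2 or more UMIs had 46.9 and 55.2 CPM. The cells just outside thus lay closer to B-2 cells than to the bulk of the B-1 class. In a count of 7 other genes picked after their values were seen, Vpreb3, Ccr7 and Satb1 were ahead of S100a6, Zbtb32, Bhlhe41 and Plscr1 in 61.8% of Cd36-/- B-2 cells and 59.9% of fl/fl B-2 cells. The same held for 50.9% and 52.4% of tied cells and for 13.6% and 13.1% of B-1 cells. The reverse, with S100a6, Zbtb32, Bhlhe41 and Plscr1 ahead, held for 16.5% of Cd36-/- and 21.7% of fl/fl B-2 cells. By these genes the B-2 class thus held some B-1-like cells, with a larger share in the fl/fl library. The part such cells have in the library ratios of genes high in B-1 cells was not measured.

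**Figure D2:**
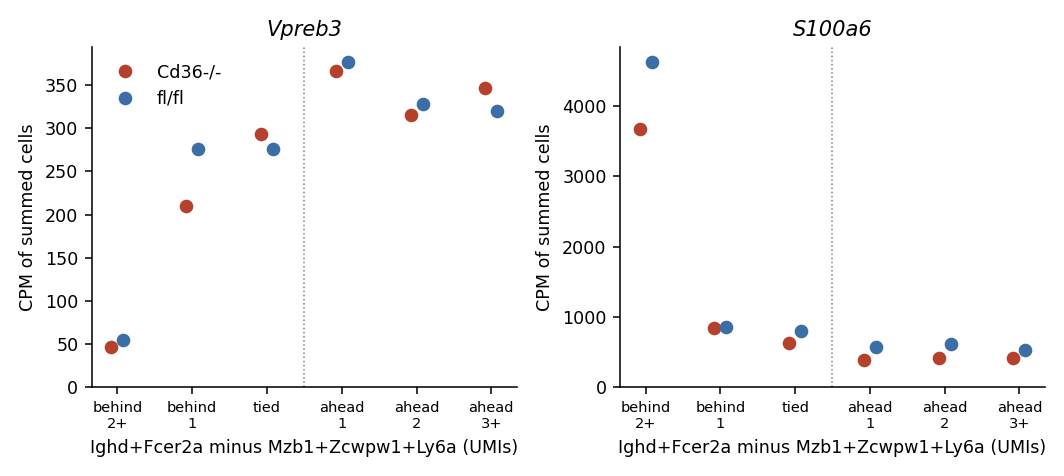
CPM of Vpreb3 (left) and S100a6 (right) in B cells grouped by the UMIs by which Ighd and Fcer2a were ahead of Mzb1, Zcwpw1 and Ly6a; 1 point per library, and the dotted line marks where the rule for B-2 cells starts. Vpreb3 is lowest and S100a6 highest in the cells behind by 2 or more UMIs. For both genes the tied cells lie between those cells and the cells ahead by 1 UMI.

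B-2 cells took a smaller part of the Cd36-/- cavity cells. They were 3.29% of all Cd36-/- cells (95% Clopper-Pearson interval 3.02% to 3.58%) and 6.37% of all fl/fl cells (5.98% to 6.78%), a difference of -3.09 percentage points (-3.57 to -2.60). Macrophages were 8012 of the Cd36-/- cells and 5393 of the fl/fl cells, and among cells other than macrophages B-2 cells were 6.59% and 10.1%. Among B and T cells together they were 15.5% and 19.7%. The lower share of all cells was not particular to B-2 cells. B-1 cells were 13.2% of all Cd36-/- and 20.4% of all fl/fl cells, a difference of -7.16 points (-8.00 to -6.32). The C1q limit had left out 425 of 3471 Cd36-/- and 344 of 4734 fl/fl cells with B cell genes, 88 and 62 of them with the B-2 genes ahead. Shares are parts of a whole, so fewer B-2 cells and more of other cells cannot be told apart here.

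Within B cells the gap was smaller as a ratio, though not in points, and hung on the split. The Cd36-/- share over the fl/fl share was 0.837 within B cells and 0.516 among all cells. B-2 cells were 18.5% of Cd36-/- B cells (17.1% to 19.9%) and 22.1% of fl/fl B cells (20.8% to 23.3%), a difference of -3.61 points (-5.51 to -1.68). With the 7 other genes in place of the rule's 5, B-2 cells were 25.3% and 26.4% of B cells, a difference of -1.10 points, while the difference among all cells was then -3.12 points. Both splits divide the same B cells, 2849 of 16000 Cd36-/- and 4255 of 14733 fl/fl cells. With fractions as near as 25.3% and 26.4%, a lower B-2 share among all cells follows from the lower share of B cells. The second split is therefore no separate support for a difference in B-2 cells, and the gap within B cells depended on the split.

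**Figure D3:**
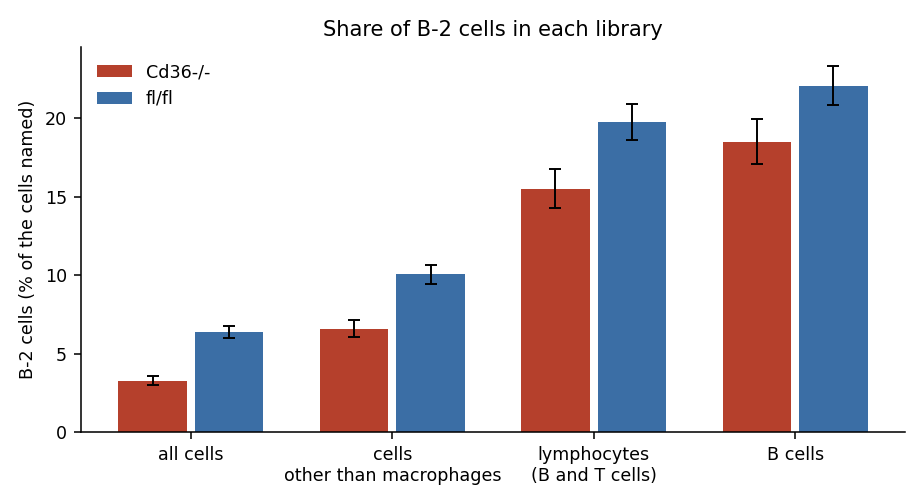
B-2 cells as a percentage of all cells, of cells other than macrophages, of lymphocytes and of B cells, for the Cd36-/- and the fl/fl library, with 95% Clopper-Pearson intervals for counting error. The bars of the Cd36-/- library are lower in each of the 4 comparisons, and the gap narrows in relative terms as the whole is restricted to B cells.

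Cells whose light chain UMIs were mostly lambda (Iglc1, Iglc2 and Iglc3 over Igkc) were rarer among B-2 than B-1 cells. A mouse B cell normally uses either kappa or lambda, and most use kappa. In the Cd36-/- library 27 of 525 B-2 cells with at least 5 light chain UMIs were mostly lambda, 5.14% (3.42% to 7.4%), against 13.1% of B-1 cells. In the fl/fl library they were 55 of 936 B-2 cells, 5.88% (4.46% to 7.58%), against 12% of B-1 cells. The B-2 minus B-1 difference was -7.93 points (-10.2 to -5.28) and -6.13 points (-8.00 to -4.08), and light chain genes had no part in the rule. The classes differed in depth, with medians of 36 and 41 light chain UMIs in B-2 cells and 82 and 84 in B-1 cells. Igkc was also found in T cells, at 322.8 and 314.2 CPM. The effect of depth and of Igkc RNA from other cells on the majority call was not tested. Between the libraries the B-2 shares differed by -0.73 points (-3.16 to 1.93). The median B-2 cell had 20% and 19.2% lambda among its light chain UMIs in the Cd36-/- and fl/fl libraries, so a majority and not presence was counted. Under the stricter C1q limit of 5 per 10000, the Cd36-/- share was 2.75%.

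Set against B-1 cells of the same library, B-2 cells were higher in genes of follicular B-2 identity. Of 4279 genes with at least 20 CPM in 1 class and outside the selection, 91 (2.13%) were at least 2-fold higher in B-2 cells in both libraries and 84 (1.96%) at least 2-fold lower; as the cells were split by their own counts, these are descriptions. Of 17 listed follicular B-2 genes 9 were among the higher and 0 among the lower, and of 15 listed traffic and adhesion genes 3 and 1. Both lists were chosen with earlier results of these data known, so these counts are no separate check of the label. Besides Vpreb3 and Ccr7, Satb1, a chromatin organizer of lymphocytes, had 89.4 and 86.9 CPM in Cd36-/- and fl/fl B-2 cells and 16.9 and 16.0 CPM in B-1 cells. Satb1 was higher still in T cells, at 120.3 and 126.2 CPM. Cd69, an early activation and tissue retention marker, had 234 and 217 CPM in B-2 cells, against 72.7 and 58.0 CPM in B-1 cells.

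Among B cell receptor signalling genes 17 of 18 listed were compared, and 1 was at least 2-fold higher and 0 lower. Of 20 nuclear respiratory chain genes 0 were past 2-fold either way. Among the single genes named by rank, the phosphatase gene Dusp2 had 42.3 and 52.6 CPM in Cd36-/- and fl/fl B-2 cells and 9.92 and 10.8 CPM in B-1 cells, and the kinase gene Lrrk2 had 55.9 and 57.7 CPM and 14.3 and 14.1 CPM. Rasgrp3, a Ras activator downstream of the B cell receptor, had log2 ratios of B-2 over B-1 cells of 1.94 and 1.70 in the 2 libraries. Chchd10, a mitochondrial protein gene, had 1.72 in each. The other genes named by rank were Pxdc1, Tmem108, Treml2, Ms4a4c, Gpr171, Ssbp2 and Cpm, with log2 ratios between 1.70 and 2.76. Of these 7, Gpr171 was lower in Cd36-/- than in fl/fl B-2 cells (log2 ratio -0.36, -0.71 to -0.02), and the intervals of the other 6 held 0.

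On the lower side stood the B-1 programme, in which 9 of 16 listed B-1 genes had enough counts to compare and 7 of the 9 were at least 2-fold lower in B-2 cells. S100a6, a calcium-binding protein gene, had 405 and 567 CPM in Cd36-/- and fl/fl B-2 cells and 3573 and 4482 CPM in B-1 cells. Zbtb32, a transcriptional repressor of antibody-secreting cells, had 5.59 and 7.67 CPM, against 102.5 and 94.0 CPM in B-1 cells. Bhlhe41, a transcription factor required for B-1a cells in mice, had 19.2 and 10.2 CPM, against 98.5 and 76.5 CPM. These 3 genes had no part in the rule, but they were named by their rank in this same comparison. The B-1 list was also chosen with earlier results of these data known. Their lower levels in B-2 cells are thus a description and no separate check of the label.

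Jchain, which joins secreted IgM subunits, had only 3 and 11 UMIs in B-2 cells and stood at 36.2 and 36.4 CPM in B-1 cells. Ahnak2 had 3 and 4 UMIs, against 61.6 and 57.4 CPM in B-1 cells, and Prkar2b had 0 and 11 UMIs. Ass1, which makes argininosuccinate, and Lgals1, which encodes galectin-1, had log2 ratios of B-2 over B-1 cells of -2.72 and -2.65, and of -2.16 and -2.05. Diras2, Nectin2, Plscr1, Pdlim1, Fgl2, Sox5 and Fcrl5 lay between -3.56 and -2.24. Very low counts in the B-2 cells make the size of several of these ratios uncertain. That of Jchain was -3.18 in the library nearer 0, and with the split by 7 other genes the value nearer 0 was 0.21.

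Immunoglobulin heavy chain expression differed in type. Ighm had 2312 and 2416 CPM in Cd36-/- and fl/fl B-2 cells and 3868 and 3792 CPM in B-1 cells. Igkc was close in the 2 classes, with log2 ratios of B-2 over B-1 cells of 0.02 and 0.12. The 4 listed V genes of natural B-1 antibodies summed to 1.60 and 1.10 CPM in B-2 cells and 7.98 and 7.35 CPM in B-1 cells, all too low to compare by library.

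Between the libraries the B-2 cells were alike in most genes. Of the 4590 genes that reached 20 CPM in either library, 195 (4.25%) were at least 1.5-fold higher in Cd36-/- B-2 cells, 125 (2.72%) at least 1.5-fold lower, and 93.0% lay within 1.5-fold. At 2-fold the counts were 20 and 11, and the median log2 ratio over all genes was 0.04. These counts moved with the minimum level set for comparing a gene: at 50 CPM they were 38 and 24, and at 5 CPM 824 and 737. Of the genes past 1.5-fold, 15 of the 195 higher and 11 of the 125 lower were past it the same way in B-1 cells. The share of all genes compared that were past it in B-1 cells is not given here. Whether these overlaps exceed that share thus cannot be read from them.

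The B-2 identity genes did not part by library. Of the 17 listed, 0 were at least 1.5-fold higher and 1 was lower, with a median log2 ratio of -0.03. Fcer2a, Vpreb3, Ccr7 and Satb1 had log2 ratios of -0.06, 0.03, 0.12 and 0.04, each with an interval that held 0. Ebf1 had -0.18 (-0.26 to -0.11). The exception past 1.5-fold was Foxo1, a transcription factor that sustains Ccr7 and Il7r in mouse lymphocytes, with 51.1 CPM in Cd36-/- and 78.9 CPM in fl/fl B-2 cells (log2 ratio -0.63, -1.05 to -0.22).

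Of 10 listed heat shock genes 8 reached 20 CPM in B-2 cells. All 8 log2 ratios of Cd36-/- over fl/fl lay below 0, 7 of them with an interval below 0 and 2 past 1.5-fold, while 56.2% of all genes compared lay above 0. The inducible pair Hspa1a and Hspa1b had under 4 CPM in either library. Heat shock proteins fold client proteins, and heat shock factor 1 raises their genes under heat and other stress. Hsph1, which encodes the exchange factor Hsp105 (chr5:149614287-149636376, minus strand), had 14 UMIs in Cd36-/- and 124 UMIs in fl/fl B-2 cells, that is 11.2 and 45.3 CPM (log2 ratio -2.02, -2.93 to -1.22). It was found in 2.66% of Cd36-/- and 11.5% of fl/fl B-2 cells, and in 1.16% and 4.31% after thinning. Dnaja1, a co-chaperone of Hsp70 (chr4:40722150-40737149, plus strand), had 165 and 280 CPM (log2 ratio -0.76, -0.99 to -0.54). It had a UMI in 16.4% and 25.8% of thinned B-2 cells. Both genes were thus lower in Cd36-/- B-2 cells in the sums and at equal depth per cell.

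The abundant family members differed by less. Hspa8, the constitutive Hsp70, had 749.7 CPM in Cd36-/- and 1007 CPM in fl/fl B-2 cells, Hsp90ab1 899 and 1200 CPM, and Hsp90aa1 386 and 519 CPM. Their log2 ratios were -0.43, -0.42 and -0.43. The mitochondrial chaperone genes Hspd1 and Hspe1 had -0.44 (-0.82 to -0.07) and -0.19 (-0.34 to -0.03), and Dnajb1 had -0.24 (-0.67 to 0.17). The list's median was -0.43, beside 0.04 over all genes. In B-1 cells, T cells and macrophages the same genes had medians of -0.68, -0.37 and -0.29. Of the 3-prime end words of 31 bases of Hspa8 and Dnaja1, 78.3% and 38.7% also occur in other annotated genes.

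Of the 8 genes 5 have a promoter in the RefSeq table (GRCm38.p6, the build of mm10), and 2 of them, Hspe1 and its head-to-head partner Hspd1, held a heat shock element in the 250 bases before the start. The element was searched as 3 alternating units of GAA and TTC with 2 bases of any kind between units, which reads on both strands, and 0.466% of all 32851 promoters hold it. In Hspe1 the letters run on to 4 units over 18 bases, as overlapping matches. The 150 bases before the start of Hspe1 (chr1:55087998-55088147, plus strand) are printed because they carry the run, in capitals, which starts 89 bases before the start of the gene; they show its letters only, not binding.
Hspe1: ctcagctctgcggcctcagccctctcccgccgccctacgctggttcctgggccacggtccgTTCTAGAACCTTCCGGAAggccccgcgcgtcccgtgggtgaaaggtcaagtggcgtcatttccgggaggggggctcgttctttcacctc

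Of 15 listed genes that glucocorticoids raise 7 reached 20 CPM, and 6 of the 7 log2 ratios lay below 0, with a median of -0.21, 4 intervals below 0 and 2 members past 1.5-fold, Cxcr4 and Ddit4; over all genes 56.2% lay above 0. Cxcr4, the receptor that holds lymphocytes in bone marrow through CXCL12 (chr1:128588199-128592293, minus strand), had 67.1 CPM in Cd36-/- and 130.0 CPM in fl/fl B-2 cells (log2 ratio -0.96, -1.32 to -0.61). It had a UMI in 13.9% of Cd36-/- and 30.7% of fl/fl B-2 cells, and in 7.32% and 13.9% after thinning. Ddit4, an inhibitor of mTORC1 (chr10:59949669-59951834, minus strand), had 24.8 and 54.1 CPM (log2 ratio -1.13, -1.74 to -0.56). Both were lower in Cd36-/- B-1 cells and macrophages as well. In T cells Cxcr4 had a log2 ratio of -0.995 (-1.45 to -0.56) and Ddit4 one of -0.37 (-0.84 to 0.09), which held 0.

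Txnip and Tsc22d3 differed little, with log2 ratios of -0.30 (-0.54 to -0.07) and -0.13 (-0.25 to -0.01). Txnip encodes an inhibitor of thioredoxin and of glucose uptake, and Tsc22d3 the glucocorticoid-induced leucine zipper. Mt1, a metallothionein gene, was the member above 0, at 34.3 and 27.8 CPM (log2 ratio 0.31, -0.27 to 0.86).

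Antigen presentation genes had log2 ratios of Cd36-/- over fl/fl above 0 in 12 of 12 listed members, beside 56.2% of all genes, with 9 intervals above 0 and 0 members past 1.5-fold. MHC class II molecules show peptides to CD4 T cells, the invariant chain (Cd74) escorts them, and H2-DM and H2-O load and edit the peptides. Cd74 had 18472 CPM in Cd36-/- and 15973 CPM in fl/fl B-2 cells (log2 ratio 0.21, 0.19 to 0.23). H2-Ab1 had 3967 and 3256 CPM, H2-Aa 4874 and 4181 CPM, and H2-Eb1 3755 and 3176 CPM, with log2 ratios of 0.28, 0.22 and 0.24. All 4 abundant class II genes were thus higher by close to the same ratio.

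The highest ratio in the list was that of H2-Oa, with 305 CPM in Cd36-/- and 229.7 CPM in fl/fl B-2 cells (log2 ratio 0.41, 0.22 to 0.59). H2-Ob had 471 and 406.5 CPM, H2-DMa 544 and 468 CPM, and the lysosomal protease gene Ctss 620.4 and 559.5 CPM. Ciita, the master activator of these genes, had 71.9 and 69.4 CPM (log2 ratio 0.05, -0.33 to 0.42), and Cd40 46.3 and 46.0 CPM. The list's median was 0.21, beside 0.04 over all genes; it was 0.090 with the split by 7 other genes, and 0.15 in B-1 cells, 0.07 in T cells and 0.07 in macrophages.

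Of the 12 genes 8 have a promoter in the same table, and 3 of the 8, H2-Aa, H2-Eb1 and H2-Oa, held the Y box letters CTGATTGG or their reverse complement in the 250 bases before the start, as do 3.83% of all promoters. The Y box is the CCAAT-type part of the class II promoter module and binds the factor NF-Y. The 150 bases before each start are printed to show the shared letters, in capitals, which start 51, 62 and 46 bases before the gene's start in H2-Aa (chr17:34287824-34287973, minus strand), H2-Eb1 (chr17:34305717-34305866, plus strand) and H2-Oa (chr17:34092229-34092378, plus strand). A match is a description of the letters only.
H2-Aa: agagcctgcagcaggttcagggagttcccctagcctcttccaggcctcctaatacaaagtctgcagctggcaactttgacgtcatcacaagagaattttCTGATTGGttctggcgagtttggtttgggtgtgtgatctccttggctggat
H2-Eb1: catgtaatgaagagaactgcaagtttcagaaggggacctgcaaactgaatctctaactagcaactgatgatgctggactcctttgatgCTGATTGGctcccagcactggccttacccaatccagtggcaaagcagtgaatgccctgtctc
H2-Oa: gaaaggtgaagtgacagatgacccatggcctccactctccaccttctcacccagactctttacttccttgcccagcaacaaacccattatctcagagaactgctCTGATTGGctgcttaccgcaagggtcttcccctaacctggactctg

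Of 14 listed interferon-gamma response genes 7 reached 20 CPM, with 6 of the 7 above 0, a median of 0.37 and 5 intervals above 0, and 1 member past 1.5-fold. Over all genes compared 56.2% lay above 0, the median was 0.04 and 4.25% were at least 1.5-fold higher. The immunoproteasome gene Psmb9 had 176 CPM in Cd36-/- and 136 CPM in fl/fl B-2 cells, and Psmb8 had 448 and 383.5 CPM. Tap1, which carries peptides to MHC class I, had 76.7 and 57.7 CPM. The same list had medians of 0.15 in B-1 cells, 0.04 in T cells and 0.45 in macrophages. Of 15 genes of the type I interferon list 3 had enough counts: Ifi27l2a and Bst2 lay above 0, with log2 ratios of 0.21 and 0.31, and Ifi203 below, with -0.18.

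Of 18 listed B cell receptor signalling genes 17 were compared, 13 of them below 0 and 4 above, with a median of -0.11. Of their intervals 2 lay below 0 and 0 above, and 0 members were past 1.5-fold upward and 1 downward. Over all genes compared 56.2% lay above 0, the median was 0.04 and 2.72% were at least 1.5-fold lower. The list's median was 0.12 where Ighd and Fcer2a had to be ahead by at least 3 UMIs, so its sign hung on the rule. The member past 1.5-fold was Inpp5d, which encodes the inhibitory phosphatase SHIP1, at 43.1 CPM in Cd36-/- and 75.6 CPM in fl/fl B-2 cells (log2 ratio -0.81, -1.27 to -0.37). Syk, the proximal kinase, had 171 and 204.5 CPM (log2 ratio -0.26, -0.49 to -0.03).

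Activation genes were split in direction. The immediate early gene Fos had 55.9 CPM in Cd36-/- and 22.3 CPM in fl/fl B-2 cells (log2 ratio 1.33, 0.81 to 1.85), and 24.3% of its Cd36-/- UMIs came from 1 cell. Junb had 119.8 and 95.7 CPM (log2 ratio 0.32, 0.02 to 0.62), while Cd69 had 0.11 (-0.10 to 0.32). The cyclin gene Ccnd2 was lower, at 73.5 and 123 CPM (log2 ratio -0.74, -1.09 to -0.41), and -1.04 in B-1 cells; with the split by 7 other genes its ratio was 0.019. Cd86, a costimulatory ligand, had 13.6 and 25.9 CPM (log2 ratio -0.93, -1.79 to -0.16). Over the 12 members compared, of 18 listed, the median was -0.08, with 1 past 1.5-fold upward and 2 downward.

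Traffic genes other than Cxcr4 were close in the 2 libraries. Of 15 listed 0 were at least 1.5-fold higher and 1 lower, and the median was 0.06. Gpr183, an oxysterol receptor that guides B cell position, had 191.6 and 165.1 CPM, and Klf2, a regulator of lymphocyte exit and homing, had 1041 and 1075 CPM. Neither interval excluded 0.

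The genes highest in Cd36-/- B-2 cells by rank were a mixed set, and in the leading pair most Cd36-/- UMIs came from 1 cell. Gcg, the glucagon gene (chr2:62474530-62483650, minus strand), had 44 UMIs in 4 Cd36-/- B-2 cells, 24 of them in 1 cell and the rest in 3 more, and 0 UMIs in fl/fl B-2 cells. Its level was at least 32.1-fold higher against a floor of 3 counts over the fl/fl cells. The counting interval put the log2 ratio at 4.64 or more. Both values treat UMIs as independent, while these came from 4 cells, so they do not measure a difference between libraries. Gcg was not absent from the fl/fl library. In Cd36-/- and fl/fl B-1 cells it had 9.27 and 10.6 CPM (log2 ratio -0.19, -0.53 to 0.14). It had 7.32 and 4.30 CPM in macrophages and 9.37 and 4.27 CPM in T cells. Retnla, a secreted product of alternatively activated macrophages, had 89.4 and 30.3 CPM in Cd36-/- and fl/fl B-2 cells (log2 ratio 1.56, 1.14 to 1.99). However, 69.6% of its Cd36-/- UMIs came from 1 cell, and without the top cell of each library the log2 ratio was -0.01. The Retnla value thus rests on 1 cell.

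Spata7 had UMIs in 16 Cd36-/- and 16 fl/fl B-2 cells, at 22.4 and 5.84 CPM (log2 ratio 1.94, 1.00 to 2.92), with 21.4% of its Cd36-/- UMIs from 1 cell. Rapgef4, a cAMP-activated exchange factor gene, had UMIs in 29 and 22 cells, at 24.0 and 8.04 CPM (log2 ratio 1.58, 0.73 to 2.44). Tifa, an adaptor of NF-kappaB signalling, had 60.7 and 30.7 CPM (log2 ratio 0.98, 0.52 to 1.45), with 0.77 in B-1 cells. Parp9, Acot2, Glrx, Dld and Aasdhppt had log2 ratios between 0.99 and 1.30 on 27 to 50 Cd36-/- UMIs each. Those counts are small. All 5 intervals lay above 0, but the rank picked genes by the interval bound nearest 0, so this adds no support.

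Tpm3-rs7, Dynlt1c and Gstp1, with log2 ratios of 1.03, 1.35 and 0.74 in B-2 cells, were higher in Cd36-/- B-1 cells and macrophages as well. In T cells their log2 ratios were 0.88, 1.01 and 0.82, and the interval of Dynlt1c (-0.07 to 2.16) held 0. Of the 3-prime end words of these 3 genes, 58.5%, 69.4% and 58.8% also occur in other annotated genes, so their counts are uncertain.

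Among the lowest genes by rank, beside Hsph1, Cxcr4, Ddit4 and Dnaja1, stood a pair of histone genes. Hist1h2ap had 59.9 CPM in Cd36-/- and 125 CPM in fl/fl B-2 cells (log2 ratio -1.06, -1.44 to -0.70) with 24.9% of its fl/fl UMIs from 1 cell, and all its 3-prime end words occur in other genes. Hist1h2bc had 27.9 and 58.4 CPM (log2 ratio -1.06, -1.64 to -0.53). Ptpn22, a phosphatase that restrains antigen receptor signalling, had 21.6 and 46.8 CPM (log2 ratio -1.12), and Il10ra, the interleukin-10 receptor chain gene, 29.5 and 59.5 CPM (log2 ratio -1.01). All 4 had intervals below 0, which the rank by the interval bound nearest 0 had itself selected.

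Pik3ip1, an inhibitor of PI3 kinase, had 32.7 CPM in Cd36-/- and 62.1 CPM in fl/fl B-2 cells (log2 ratio -0.92), and -0.59 in B-1 cells. Acbd3, Pdcd11 and Gtpbp2 had -0.92, -0.90 and -0.75. S100a6 had -0.49 (-0.63 to -0.34) in B-2 cells and -0.33 in B-1 cells. With the split by 7 other genes, of which it is one, it had -0.19.

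**Figure D4:**
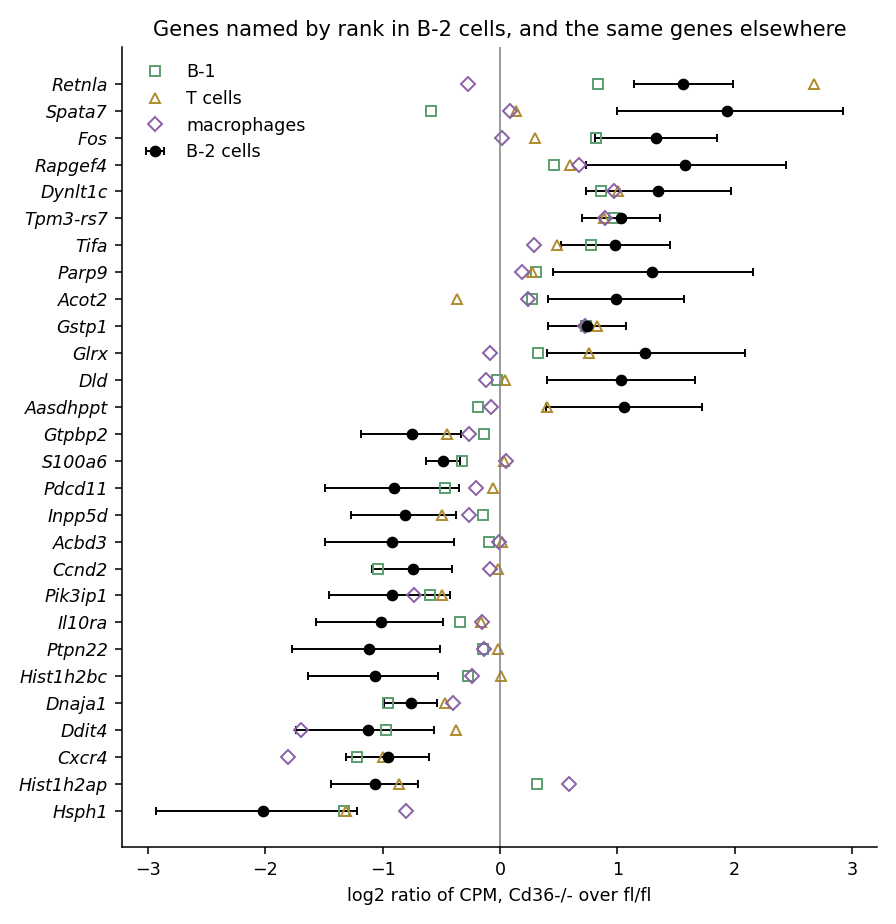
Log2 ratio of CPM, Cd36-/- over fl/fl, in B-2 cells (black, with 95% intervals for counting error) for most of the genes named by rank, with the ratios of the same genes in B-1 cells, T cells and macrophages (open symbols). Tpm3-rs7, Dynlt1c and Gstp1 on the higher side and Hsph1, Cxcr4 and Dnaja1 on the lower have the same side in all 4 classes, while Spata7 and Hist1h2ap do not.

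Markers of other cells moved with the library. Of 15 macrophage markers 14 had enough counts in B-2 cells and 13 lay above 0, with a median of 0.51 and 5 past 1.5-fold. Over all genes compared 56.2% lay above 0, the median was 0.04 and 4.25% were at least 1.5-fold higher. The markers summed to 7304 CPM in Cd36-/- and 5626 CPM in fl/fl B-2 cells. Their sums were 6640 and 5964 CPM in T cells and 68727 and 72209 CPM in macrophages themselves. Apoe, the apolipoprotein E gene, stood at 458 and 226.8 CPM in B-2 cells and 399 and 149 CPM in T cells, and Saa3, an acute phase gene, at 3325 and 2072 CPM and 2886 and 1872 CPM. Lyz2, the gene that hosts the Cre, was the exception, at 1840 and 2133 CPM in B-2 cells and 17979 and 29309 CPM in macrophages. A subtraction of macrophage RNA scaled on the 3 C1q genes removed 6.48% of Cd36-/- and 4.96% of fl/fl B-2 UMIs. As the rule limits those 3 genes in B-2 cells, the amount removed is bounded by the choice of cells and does not measure all macrophage RNA.

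T cell and neutrophil markers were near 0 in B-2 cells, summing to 59.9 and 39.5 CPM and to 16.0 and 12.8 CPM in the Cd36-/- and fl/fl libraries, and none reached 20 CPM. The NK cell markers Nkg7 and Gzma stood at 37.5 and 21.2 CPM and at 51.9 and 36.5 CPM. The dendritic cell marker Cd209a stood at 27.2 and 15.3 CPM. The part that RNA or cells of these types have in the genes named above was not tested.

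**Figure D5:**
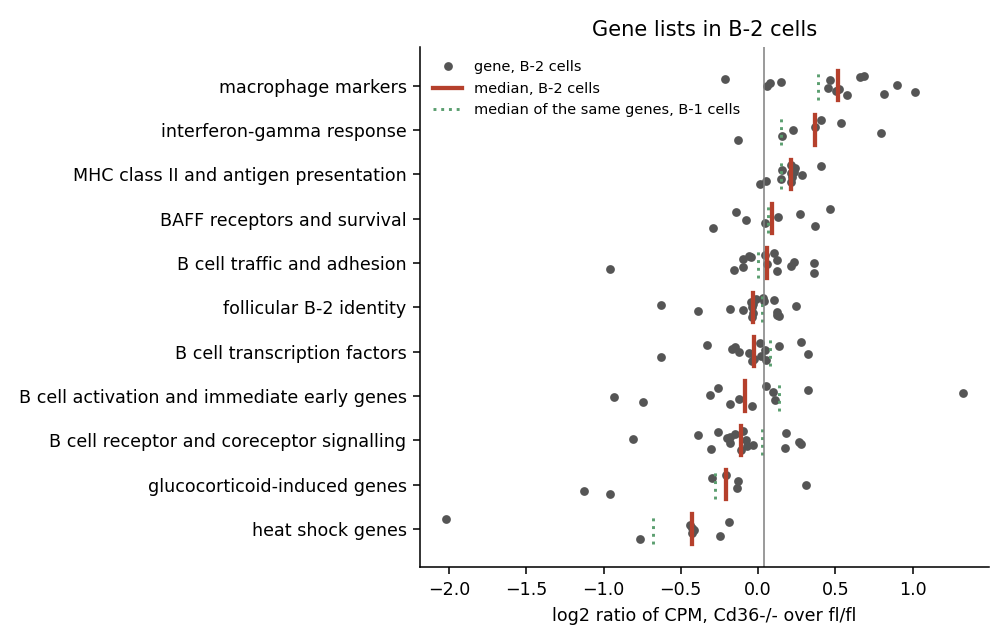
Log2 ratio of CPM, Cd36-/- over fl/fl, of the members of 11 gene lists in B-2 cells (grey points, genes that reached 20 CPM in either library), with the median of each list in B-2 cells (red bar) and of the same genes in B-1 cells (dotted bar); the grey line is the median of all genes, 0.04. Heat shock genes lie to the left and macrophage, interferon-gamma and MHC class II genes to the right in B-2 cells, with B-1 medians on the same side.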

How the data were processed

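The authors deposited 1 matrix of UMI counts per library, made with the 10x Genomics single-cell 3-prime v2 protocol per the labels and with Cell Ranger against mm10 per the submitters' processing notes (software version 3.0.0 in the matrix header); the lowest barcode held 500 UMIs. The members and gene lists were chosen with earlier results of these data known. Counts of B-2, B-1 and T cells and macrophages were summed here per library and divided by the summed UMIs (CPM). Intervals (95%) are exact: Poisson for levels, conditional binomial for ratios, Clopper-Pearson for shares, and for differences of shares the 2 exact intervals combined. With 1 library per group no gene was tested: a gene was called at 1.5-fold by library, or at 2-fold in both libraries for B-2 over B-1 cells. Genes under 20 CPM in both were not compared. Doublets were kept, as the rule sets no limit; Scrublet (scanpy 1.11.5) marked 3 Cd36-/- and 4 fl/fl B-2 cells. TMM factors came from edgeR 4.0.16.

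Genes were named by rule: the markers and rule genes, Cd36, Lyz2, the 15 highest and 15 lowest by the interval bound nearest 0 in each comparison, and up to 4 members per list by the same rank, without mitochondrial, ribosomal, immunoglobulin, hemoglobin and sex-linked genes and genes under 1/5 of their level in macrophages or T cells; other list members are given as examples, chosen after their values were seen. The ratio and interval code was tested on simulated counts. Some genes are not reported here.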

Additional observations from a re-analysis of the deposited data

Results flagged for a closer look

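Among 128 named genes compared by library, 7 had a ratio on opposite sides of 0 in B-2 and B-1 cells, each with an interval that excluded 0. The difference between the 2 classes was not tested, as there is 1 library per group. Values are log2 ratios, Cd36-/- over fl/fl, in B-2 cells first. Spata7 had 1.94, against -0.59 in B-1 cells, on 28 Cd36-/- and 16 fl/fl UMIs in B-2 cells. Hist1h2ap had -1.06, against 0.32 in B-1 cells, and 24.9% of its fl/fl UMIs came from 1 cell. Stmn1, which encodes a microtubule regulator of dividing cells, had -0.79, against 0.25, with 22.9% of its fl/fl UMIs from 1 cell. Ly6a, one of the genes of the selection, had -0.26, against 0.22. Cd24a, high in immature B cells, had -0.22, against 0.17. Ifi27l2a, an interferon-induced gene, had 0.21, against -0.10. Ighm had -0.063, against 0.03. The last 4 differ from 0 by at most 0.26 in B-2 cells.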

How the results depend on the processing

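Of 2698 recomputed values 2525 stayed close to the value given, 166 moved and 7 were counted as changing side. A change of side was counted only for gene ratios past the fold called and for list medians away from 0. Other values could cross 0 uncounted, as the median of the nuclear respiratory chain list did (-0.043 to 0.034). The share difference among all cells was -1.53 points with Ighd and Fcer2a ahead by at least 3 UMIs and -2.53 points with B cell genes at 30 per 10000; the split by 7 other genes gave -1.10 points among B cells and a fl/fl lambda share of 7.58%. Genes 1.5-fold higher and lower numbered 468 and 371 at the 3-UMI margin, 352 and 262 at a C1q limit of 5, 38 and 24 at 50 CPM and 824 and 737 at 5 CPM; the lower count was 81 with no C1q limit. At 50 CPM 48 genes were 2-fold higher and 34 lower in B-2 than B-1 cells. At a C1q limit of 5 the lambda share in Cd36-/- B-2 cells was 2.75% and its difference from B-1 cells -11.8 points. A change of side was counted for Retnla at the 3-UMI margin (-0.36) and without each gene's top cell (-0.013). It was also counted for the B cell receptor list at the 3-UMI margin (0.12). For the type I interferon list it was counted at that margin (-0.13) and at a C1q limit of 5 (-0.042). With the other split it was counted for Ccnd2 (0.019) and for Jchain in B-2 over B-1 cells (0.21). The causes were not tested. The heat shock median stayed between -0.52 and -0.40 and that of MHC class II between 0.090 and 0.23. Having no C1q limit, the other split, and leaving out shared barcodes or top cells were chosen after seeing the data. Small counts limit genes near 20 CPM, about 25 Cd36-/- UMIs. No paired analysis was possible because each group is 1 pooled library.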

Other observations

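Survival and sensing genes of B-2 cells were close in the 2 libraries. Of 8 genes of BAFF receptors and survival that had enough counts, of 11 listed, 0 were past 1.5-fold either way, with a median log2 ratio of 0.09; Tnfrsf13c, the BAFF receptor gene, had 91.8 CPM in Cd36-/- and 101.5 CPM in fl/fl B-2 cells, and Bcl2 71.9 and 88.0 CPM. Of 6 genes of Toll-like receptors and their partners compared, of 12 listed, 1 was past 1.5-fold, Ly96, the MD-2 partner of TLR4, with 25.6 and 13.9 CPM (log2 ratio 0.88, 0.16 to 1.60). Of 15 B cell transcription factors 0 were higher and 1, Foxo1, was lower, with a median of -0.02; Pax5, which fixes B cell identity, had 166.9 and 187.7 CPM, and Spib 87.0 and 109.2 CPM.

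Endoplasmic reticulum chaperones, which rise as B cells become antibody-secreting cells, had a median of -0.03 over 12 of 13 genes with 0 past 1.5-fold. Of 20 nuclear respiratory chain genes 0 were past 1.5-fold, with a median of 0.02, and the 12 mitochondrially encoded genes had a median of 0.08. Of 6 cell cycle genes compared, of 20 listed, 1, Stmn1, was lower. Of germinal centre and plasma cell genes 2 of 12 had enough counts, Irf4 and Xbp1, both with intervals that held 0.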
